A study of Homo sapiens with 15 samples.

Results

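P493-6 cells given MYCi975, a small-molecule inhibitor of the transcription factor MYC, were compared directly with P493-6 cells in which tetracycline had switched off an introduced MYC gene. The comparison rests on 6 of the 15 samples of the series, 3 libraries per treatment, chosen by their labels, and on the 12860 genes listed in both of the P493-6 tables, which hold 12998 genes for MYCi975 and 13703 for tetracycline. MYCi975 was given at 6 µM in DMSO and tetracycline at 0.1 µg/ml in water, each for 24 h, in RPMI with 10% fetal bovine serum. The 3 control libraries came from cells given DMSO, so the vehicle differs between the tetracycline libraries and the others, and an effect of vehicle or of the antibiotic itself cannot be told apart from that of MYC repression. P493-6 is a human B cell line that the labels call a Burkitt lymphoma line overexpressing c-MYC. All 3 groups are this 1 line. The labels do not say if the replicate libraries stem from cultures grown apart, and the p-values cover only how far these libraries scatter, which could be technical.

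MYC binds DNA as a pair with MAX, at E-box sequences, and drives genes for ribosome assembly, nucleotide synthesis and metabolism as cells grow. Partners of the MXD family compete for MAX and act against MYC. In B cells, high MYC goes with proliferation and biomass growth, and resting B cells rather carry genes of antigen presentation, cell surface signalling and quiescence.

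Levels are in CPM (reads of the gene for each 1000000 reads counted in that library), and differences are on the log2(CPM + 1) scale, MYCi975 minus tetracycline, from limma with Benjamini-Hochberg adjustment over all 12860 genes. A gene was called at an adjusted p below 0.05, and rose or fell is written here only of called genes. CPM is relative, so a lower total of RNA per cell or fewer cells cannot be told apart from these values. The MYCi975 libraries held 10016138 to 11691303 reads, the tetracycline libraries 8162582 to 9895173 and the controls 9774101 to 12212555. A level of 1 CPM is then only 8.16 to 12.2 reads, which limits how precise a difference of a low gene can be. All 10 B cell markers were in both tables, and their summed level was 4635 to 4959 CPM with MYCi975, 11409 to 11845 CPM with tetracycline and 4104 to 4336 CPM in controls. Of 8 T cell markers 3 were in both tables (11.4 to 14.7 CPM summed with MYCi975, 44.1 to 50.2 CPM with tetracycline, 13.3 to 17.9 CPM in controls), while CD3D, CD8A and CD28 were in neither. CD2 and CD4 were listed only beside tetracycline, at 2.77 ± 0.794 and 1.32 ± 0.343 CPM with tetracycline and 0.341 and 0.206 CPM in controls. Of 8 monocyte markers, LYZ and ITGAM were in both tables (8.78 to 12.4 CPM summed with MYCi975, 134 to 139 CPM with tetracycline, 8.43 to 10.6 CPM in controls), while CD14 and CSF1R were in neither. Of 6 epithelial markers only EPCAM was in both tables, at 13.3 to 14.3 CPM with MYCi975, 0.808 to 2.64 CPM with tetracycline and 10.7 to 11.9 CPM in controls. KRT19 was listed only beside tetracycline, at 0.579 ± 0.449 CPM with tetracycline and 0.675 CPM in controls, and the other 4 were in neither table. The part of such cells in the results was not tested.

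The transcriptomes of the 2 treatments lay far apart. Of the 12860 genes, 9794 (76.2%) were called, 5438 (42.3%) higher and 4356 (33.9%) lower with MYCi975 than with tetracycline. With TMM factors, which rescale the libraries, the split was 4884 higher and 4929 lower, so which side holds more genes depends on the scaling. At a difference of at least 2-fold the counts were 1954 (15.2%) higher and 1426 (11.1%) lower, at 4-fold 414 (3.22%) and 324 (2.52%), and at 8-fold 72 (0.56%) and 75 (0.583%). The 3 libraries of one treatment all lay above the 3 of the other for 9891 genes (76.9%). The median difference over all genes was 0.08 and the median absolute difference of called genes was 0.74.

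Each treatment was also set beside the controls, which both comparisons share, so the values of the 2 comparisons are not independent of each other. MYCi975 against control gave 3389 called genes (26.4%), 1296 (10.1%) higher and 2093 (16.3%) lower, of which 26 (0.202%) differed by at least 2-fold. That last count depends on the setting, with 118 at a pseudocount of 0.1, 133 with edgeR, 86 with DESeq2 and 13 at a mean of at least 5 CPM. With TMM factors the split turned to 1734 higher and 1417 lower. Tetracycline against control gave 10057 called genes (78.2%), 4293 (33.4%) higher and 5764 (44.8%) lower, of which 3744 (29.1%) differed by at least 2-fold. With TMM factors that split was 5062 higher and 5025 lower. TMM factors shifted the median tetracycline difference from control over all genes by 0.13, and that of the direct comparison by -0.09. The median absolute difference from control over all genes was 0.15 with MYCi975 and 0.61 with tetracycline.

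**Figure D1:**
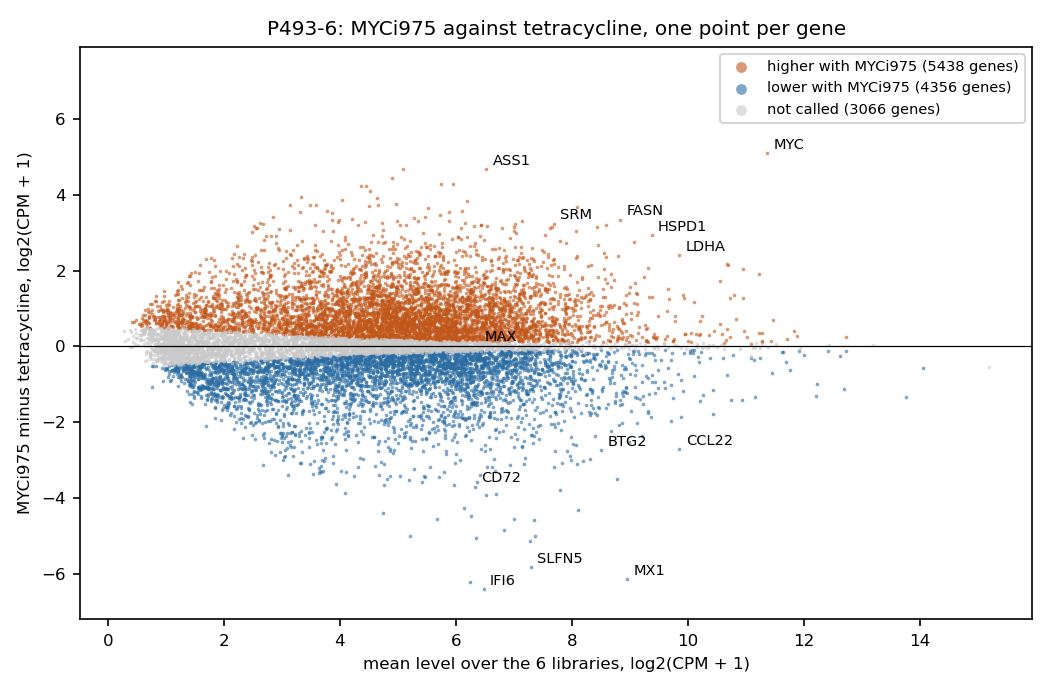
Difference between MYCi975 and tetracycline on the log2(CPM + 1) scale (vertical axis) against the mean level over the 6 libraries (horizontal axis), 1 point per gene. Of 12860 genes, 5438 were called higher and 4356 lower with MYCi975; MYC lies at the top (5.09) and IFI6 at the bottom (-6.40), while MAX lies at 0.02.

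MYC itself had the largest positive difference of all called genes with a mean of at least 5 CPM and groups that did not overlap. MYC had 5138, 5084 and 5132 CPM with MYCi975, against 152, 145 and 149.8 CPM with tetracycline. All 3 MYCi975 libraries lay far above all 3 tetracycline libraries, a difference of 5.09 ± 0.03 (SE, n = 3 each, adjusted p = 2.7e-61). The controls held 4728 ± 54.8 CPM, so MYC RNA differed from control by 0.11 with MYCi975 and by -4.98 with tetracycline. MYC is a single entry in the tables, so RNA of the introduced gene and of the cells' own gene are summed. These values are RNA levels and say nothing of MYC protein.

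MAX, the partner that MYC needs to bind DNA, held 82.7 ± 1.44 CPM with MYCi975 and 81.6 ± 5.78 CPM with tetracycline (SD, n = 3 each). The 2 groups overlapped, and the difference of 0.02 was not called (95% interval -0.09 to 0.14, adjusted p = 0.74). Of 10 measured members of the MYC, MAX and MXD network, 5 were higher and 3 lower with MYCi975, with a median of 0.10 that turned to -0.0033 with TMM factors. MXI1, a member of the MXD family, was on the side of MYC, with 63.7 ± 1.80 CPM with MYCi975, 12.4 ± 1.05 CPM with tetracycline and 48.2 ± 2.43 CPM in controls. MXD3 and MXD4, of the same family, went the other way. MXD4 had 41.5, 43.1 and 44.8 CPM with MYCi975, against 91.5, 92.0 and 88.3 CPM with tetracycline, a difference of -1.05. MXD3 differed by -1.56. MXD4 differed from control by 1.10 with tetracycline, and its MYCi975 level of 43.1 ± 1.67 CPM was not called against the 41.7 ± 2.20 CPM of controls.

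Apart from MYC, the genes with the largest positive differences were low with tetracycline, with means between 0.233 CPM (KISS1R) and 5.90 CPM (ASS1). After MYC came CAMKV, with 64.7 ± 3.34 CPM with MYCi975 and 1.64 ± 0.817 CPM with tetracycline, a difference of 4.68. ASS1, which makes argininosuccinate in arginine synthesis, followed at 4.68, and DDN, PODXL2, MTSS1L, NPW, FJX1, MEX3A and KISS1R at 3.94 to 4.45. FJX1 shows the pattern most of them shared. FJX1 had 36.4, 40.3 and 37.2 CPM with MYCi975, against 0.689, 1.23 and 1.41 CPM with tetracycline. The controls held 38.3 ± 3.90 CPM, so the MYCi975 libraries lay at the control level (-0.0086, not called) and the tetracycline libraries -4.23 from it. ASS1 and PODXL2 were also higher with MYCi975 than in controls (1.75 and 0.21). At such low levels the size of a log2 difference depends on the pseudocount, and with 0.1 in place of 1 the differences of CAMKV and FJX1 became 5.33 and 5.03. DDN was lower than in controls (-0.24, adjusted p = 0.047), a call that was lost with TMM factors (adjusted p = 0.12).

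Genes for ribosome assembly stood on the side of MYCi975. Of the 58 measured members of the Hallmark MYC targets V2 list, which is rich in nucleolar factors, 54 were higher and 2 lower with MYCi975, 51 of them higher by at least 2-fold, with a median of 1.94 against 0.08 over all genes. The largest were RRP9, a snoRNA-particle protein of rRNA processing, at 3.39, SRM, which makes spermidine, at 3.24, the exosome subunit EXOSC5 at 3.21 and the folate carrier SLC19A1 at 3.20. SRM had 370.2, 367 and 381 CPM with MYCi975, against 34.1, 44.2 and 38.2 CPM with tetracycline. Controls held 388 ± 14.1 CPM of SRM, which was not called against MYCi975. The 2 members that were lower were the kinase MAP3K6 (-1.48) and the phosphatase DUSP2 (-0.50). Against the shared controls the list's median was -0.19 with MYCi975 (33 members lower and 1 higher, 27 and 1 with TMM factors) and -2.08 with tetracycline (56 lower, 2 higher).

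The machines that make ribosomal and transfer RNA moved the same way. Among nucleolar rRNA processing factors, 35 of 36 were higher with MYCi975 and none lower (median 1.86), led by BOP1 (2.92) and WDR12 (2.67) of the large-subunit PeBoW complex, EBNA1BP2 (2.61) and the helicase DDX21 (2.46). Of 15 subunits and factors of RNA polymerase I, which transcribes rRNA, 13 were higher and 1 lower (median 0.85). CD3EAP, the older symbol in the files for the polymerase I subunit POLR1G, had the largest difference. CD3EAP had 131, 139.9 and 134 CPM with MYCi975, against 6.89, 9.80 and 8.99 CPM with tetracycline. The groups were far apart (3.84 ± 0.08, SE, adjusted p = 1.6e-28). Controls held 163 ± 8.85 CPM, so CD3EAP also fell with MYCi975, by -0.27 on the log2 scale (adjusted p = 0.012). TAF1B, of the promoter-selectivity factor, was the exception at -0.20. That call was lost without MYCi975 replicate 1 or 3 or tetracycline replicate 1 (adjusted p = 0.057, 0.078 and 0.077). For RNA polymerase III, which makes tRNA, 19 of 21 were higher and 1 lower (median 0.75). Its paralogous subunits went opposite ways, POLR3G at 2.57 and POLR3GL at -1.17.

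POLR3G had 34.6, 36.5 and 41.8 CPM with MYCi975, against 5.17, 6.00 and 5.36 CPM with tetracycline. Its paralog POLR3GL held 20.3 ± 0.806 CPM with MYCi975 and 47.2 ± 4.79 CPM with tetracycline. Neither pair of groups overlapped.

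The hexamer CACGTG is the E-box that MYC and MAX bind best. It was searched on both strands (it reads the same on each) in the 250 bases before the start of each gene in RefSeq's table for GRCh38.p14, which matched 8889 of 10811 protein-coding genes (82.2%). It was present in 9.45% of all these promoters, in 11.1% of those of genes called higher and in 8.06% of those called lower with MYCi975. Of the 48 promoters matched for the MYC target list, 12 (25%) held it. The core of the element that CEBP and ATF factors share (TGATGNAA, both strands) was in 1.34% of all and in 2 of the 23 promoters matched for the integrated stress response. Example promoters were picked because they hold the E-box, by size of difference among named genes called higher, without the chromosome of MYC. CAMKV, ASS1, DDN and PODXL2, which ranked above MTSS1L, were passed over. So were NPW, which ranked above FJX1, and MEX3A and KISS1R, which ranked above CD3EAP. The picks thus do not show how common the E-box is among the genes with the largest differences. They were MTSS1L and FJX1, from those genes, and CD3EAP, which led the polymerase I factors. MTSS1L, FJX1 and CD3EAP have the E-box at 44, 85 and 12 bases before the start. Their promoters follow, on the strand of the gene, 5′ to 3′, with the E-box in capitals; they lie at chr16:70686054-70686303 (minus strand), chr11:35618210-35618459 (plus strand) and chr19:45406394-45406643 (plus strand). A match is a description of these letters, and binding was not measured here.
MTSS1L: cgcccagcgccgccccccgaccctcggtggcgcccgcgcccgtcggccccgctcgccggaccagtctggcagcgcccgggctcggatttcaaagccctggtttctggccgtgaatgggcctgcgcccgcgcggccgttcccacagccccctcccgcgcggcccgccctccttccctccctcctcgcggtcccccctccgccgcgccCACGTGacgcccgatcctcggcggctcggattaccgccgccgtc
FJX1: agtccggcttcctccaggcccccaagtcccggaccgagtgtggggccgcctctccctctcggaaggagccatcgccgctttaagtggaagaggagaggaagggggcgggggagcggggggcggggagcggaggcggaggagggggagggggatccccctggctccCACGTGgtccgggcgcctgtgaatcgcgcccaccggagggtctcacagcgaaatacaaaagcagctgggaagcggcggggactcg
CD3EAP: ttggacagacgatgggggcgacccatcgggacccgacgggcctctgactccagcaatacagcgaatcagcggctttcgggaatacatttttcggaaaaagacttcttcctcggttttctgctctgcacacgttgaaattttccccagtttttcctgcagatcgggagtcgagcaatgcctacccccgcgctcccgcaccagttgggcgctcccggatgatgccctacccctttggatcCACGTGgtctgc

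Protein synthesis beyond the nucleolus differed too, while cytosolic ribosomal proteins were called in both directions. Of 19 cytosolic aminoacyl-tRNA synthetases, which charge tRNA, 18 were higher with MYCi975 (median 1.2), led by FARSB (2.48), IARS (2.39), VARS (2.37) and LARS (2.27). Of 40 initiation factors 33 were higher and 2 lower (median 0.75). EIF4EBP1, an inhibitor of cap-dependent initiation, was the largest of them at 2.64 and also rose over control with MYCi975 (0.31), while its relative EIF4EBP2 was lower at -0.38. Of 77 mitochondrial ribosomal proteins 74 were higher and 1, MRPL40, lower (median 0.91).

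Cytosolic ribosomal proteins split into 25 higher, 27 lower and 27 not called of 79, all within -0.62 and 0.59, with a median of -0.0025. With TMM factors 9 were higher and 38 lower, at a median of -0.11, so their side depends on the scaling. RPS27 was lowest (-0.62), with 565 ± 22.4 CPM with MYCi975 and 870.2 ± 59.9 CPM with tetracycline, and RPL5 was among the higher ones (0.41). Against control 69 of the 79 rose with MYCi975 and none fell (median 0.23), and 61 rose and 8 fell with tetracycline (median 0.22). Many of these genes have near-identical pseudogene copies, so single values are uncertain.

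Of 16 host genes of small nucleolar RNAs, whose introns carry guides for rRNA modification, 14 were higher with MYCi975 and none lower, and with TMM factors 11 were higher and 1 lower. SNHG16 (2.43), DANCR (2.41) and SNHG17 (2.24) led them.

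**Figure D2:**
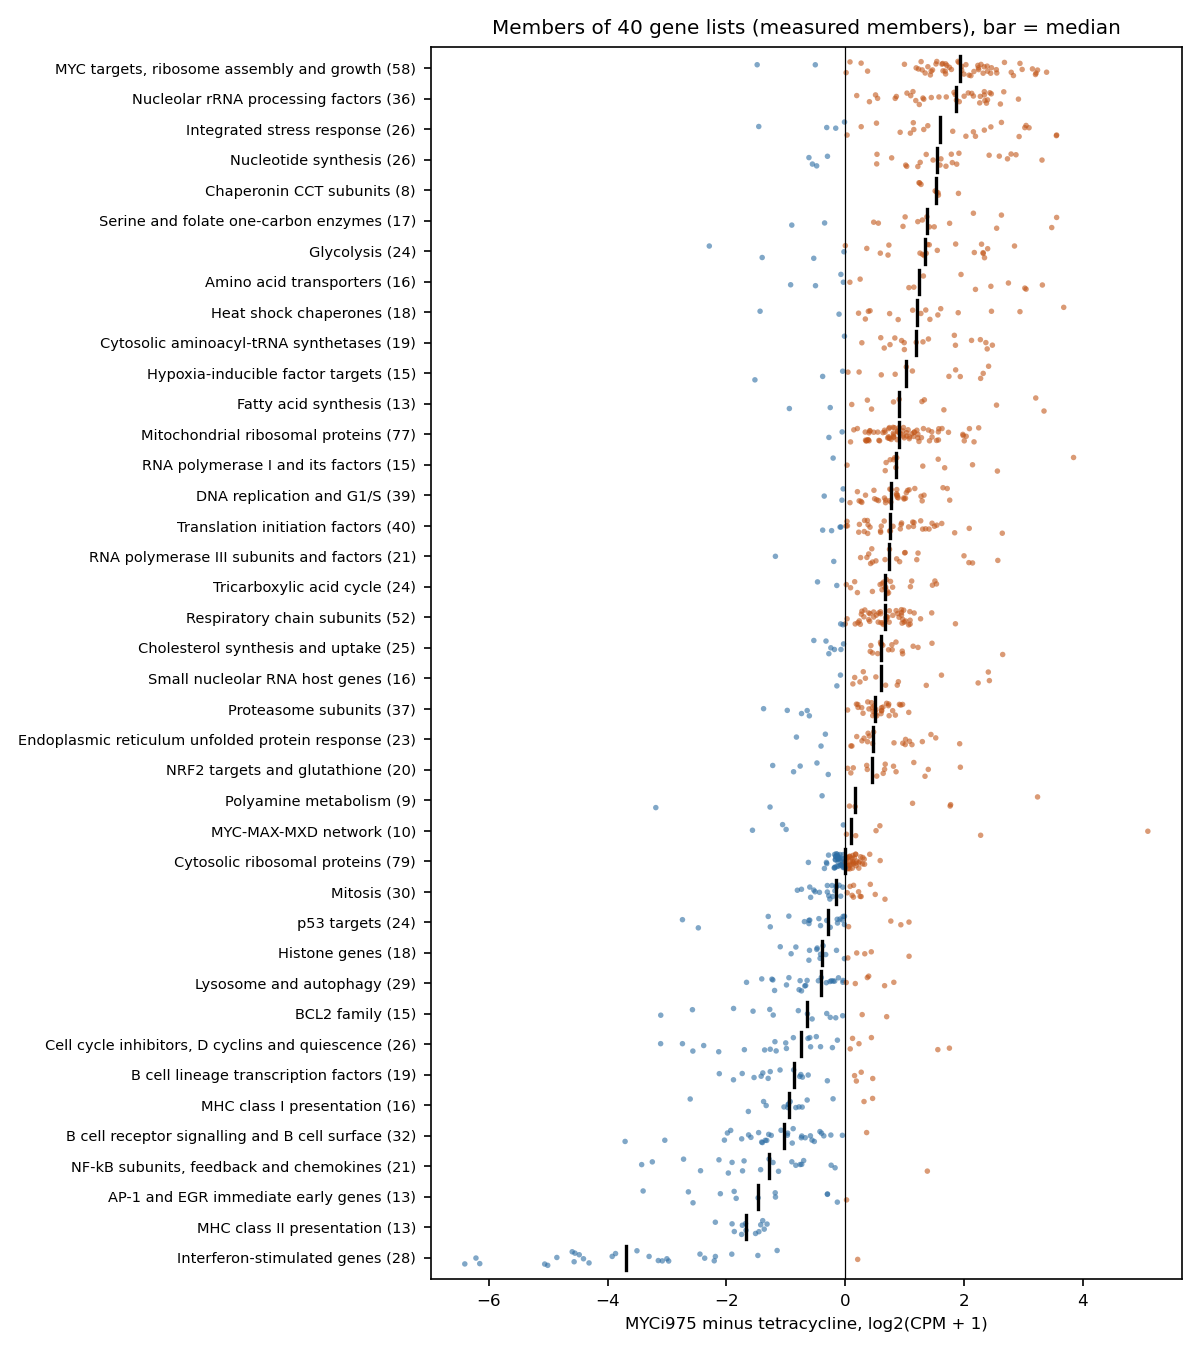
Differences between MYCi975 and tetracycline on the log2(CPM + 1) scale (horizontal axis) for every measured member of 40 gene lists, 1 row per list with its number of measured members, 1 point per gene, orange above 0 and blue below, with a bar at the median. MYC targets have the highest median (1.94) and interferon-stimulated genes the lowest (-3.68), and cytosolic ribosomal proteins cluster at 0.

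Enzymes that supply nucleotides and one-carbon units were higher with MYCi975. Of 26 genes of nucleotide synthesis 22 were higher and 4 lower (median 1.54). NME1, a nucleoside diphosphate kinase, led at 3.31, followed by the purine enzymes PPAT (2.87) and PAICS (2.79) and by CAD (2.73), which opens pyrimidine synthesis. CAD had 421, 412 and 407 CPM with MYCi975, against 61.1, 62.1 and 61.0 CPM with tetracycline. CAD was at the control level with MYCi975 (controls 411 ± 7.39 CPM, 0.0081, not called) and the groups of the direct comparison were far apart. Enzymes that went the other way included the p53-inducible ribonucleotide reductase subunit RRM2B (-0.61) and thymidine kinase TK1 (-0.55).

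Of 17 enzymes of serine and folate metabolism 15 were higher (median 1.37). PSAT1, of serine synthesis, had the largest difference in this list. PSAT1 had 107, 118 and 98.3 CPM with MYCi975, against 9.41, 8.82 and 6.67 CPM with tetracycline. All MYCi975 libraries were above all control libraries (77.9 ± 4.95 CPM), and all tetracycline libraries below them, with differences from control of 0.46 and -3.09. PHGDH, the first enzyme of the same route, gave 0.33 and -2.30, and mitochondrial MTHFD1L, not called against control with MYCi975, differed directly by 3.48. Amino acid transporters were higher in 11 of 16 and lower in 2 (median 1.24), with SLC38A5 at 3.32, SLC7A5, the leucine carrier, at 3.04 and the glycine transporter SLC6A9 at 3.02. SLC38A2 and SLC43A2 were lower (-0.50 and -0.92).

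Polyamine genes stood on both sides. The biosynthetic ODC1 (1.77), AMD1 (1.77) and SRM were higher with MYCi975, while SAT1 and PAOX, which break polyamines down, were lower (-3.19 and -1.26). SAT1 had 8.55, 7.30 and 8.99 CPM with MYCi975, against 86.9, 83.6 and 79.5 CPM with tetracycline. Every tetracycline library held many times the SAT1 of any MYCi975 library, and controls held 11.2 ± 1.04 CPM. Of the 9 measured genes 5 were higher and 3 lower, and 4 and 3 with TMM factors.

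Glycolysis, the tricarboxylic acid cycle and the respiratory chain were also on the MYCi975 side. Of 24 glycolytic genes 19 were higher and 3 lower (median 1.35), with the lactate carrier SLC16A1 at 2.85, LDHA at 2.40 and GPI at 2.34. The glucose carrier SLC2A3 was the sharpest exception. SLC2A3 had 9.92, 10.2 and 12.3 CPM with MYCi975, against 56.9, 60.3 and 52.0 CPM with tetracycline. Controls held 5.21 ± 1.49 CPM, so SLC2A3 rose over control with both treatments, by 0.95 with MYCi975 and 3.24 with tetracycline. Of 24 cycle genes 19 were higher and 2, IDH1 and IDH2, lower (median 0.68). Of 52 respiratory subunits 48 were higher and none lower (median 0.66), with cytochrome c, CYCS, first at 1.86.

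Lipid synthesis followed the same line with more exceptions. Fatty acid genes were higher in 10 of 13 and lower in 2 (median 0.91). FASN (3.35) and SCD (3.21), which build and desaturate fatty acids, led them. FASN had 817, 811 and 855 CPM with MYCi975, against 77.9, 82.8 and 80.7 CPM with tetracycline. The mean levels were 10.3-fold apart, and MYCi975 was not called against the control level of 873 ± 23.5 CPM. Cholesterol genes were higher in 18 of 25 and lower in 5 (median 0.60), led by DHCR7 (2.65). Among 20 genes of the oxidative stress factor NRF2 and of glutathione, 13 were higher, with thioredoxin TXN first (1.94), and 5 lower, with the classical NRF2 targets NQO1 (-1.22) and HMOX1 (-0.87) lowest of the named ones.

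Genes of the integrated stress response, the programme in which ATF4 turns on amino acid supply genes, were higher with MYCi975 than with tetracycline and also than in controls. Of 26 measured members 21 were higher and 2 lower in the direct comparison (median 1.6). The list shares members with others, and its largest difference (3.56) is that of PSAT1, given above with serine synthesis. Against the shared controls 23 rose and none fell with MYCi975 (median 0.64), and 7 rose and 17 fell with tetracycline (median -0.95). INHBE had 13.4, 10.8 and 14.2 CPM with MYCi975, against 0.689, 1.23 and 0.101 CPM with tetracycline. INHBE encodes an activin subunit, and controls held only 1.84 ± 0.269 CPM, so all 3 MYCi975 libraries stood above both other groups (2.27 from control, adjusted p = 2.1e-12).

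STC2, a secreted glycoprotein, had the same order. STC2 had 16.1, 17.1 and 19.0 CPM with MYCi975, against 0.459, 0.368 and 0.910 CPM with tetracycline. Controls lay between, at 5.87 ± 1.57 CPM, with MYCi975 1.44 and tetracycline -2.11 from them. INHBE, STC2 and SLC6A9 are near or below 1 CPM in the tetracycline libraries, so their log2 differences there depend on the pseudocount. PPP1R15A, which reverses the phosphorylation that starts the response, was the main exception. PPP1R15A had 27.5, 29 and 27.7 CPM with MYCi975, against 74.5, 87.2 and 74.9 CPM with tetracycline. It rose over the control level of 22.4 ± 1.86 CPM with both treatments, by 0.32 with MYCi975 and by 1.77 with tetracycline. BBC3, a BH3-only death gene, was also lower (-0.31). CHAC1, a glutathione-degrading member of the response, was listed only beside MYCi975.

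Targets of the hypoxia-inducible factors gave a like order over fewer genes. Of 15 measured members 10 were higher and 2 lower with MYCi975 than with tetracycline (median 1.03); 12 rose over control with MYCi975 and none fell, while 4 rose and 8 fell with tetracycline. VEGFA, the vascular growth factor, was at 2.41. PDK1, a pyruvate dehydrogenase kinase, held 67.9 ± 5.03 CPM with MYCi975, 18 ± 0.918 CPM with tetracycline and 36.6 ± 2.0 CPM in controls. PFKFB4, a regulator of glycolytic flux, was at 2.32. PFKFB4 had 36.6, 34.5 and 38.7 CPM with MYCi975, against 6.31, 7.72 and 5.66 CPM with tetracycline. No library of one group reached those of the other, and controls (17.7 ± 2.89 CPM) lay between. BHLHE40 and P4HA2 were higher with tetracycline (-1.52 and -0.38) although both rose over control with either treatment. NDRG1, a further member of the list, was listed only beside tetracycline and so has no MYCi975 values here. Oxygen in the cultures is not recorded in the labels.

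Of 23 genes that answer unfolded protein in the endoplasmic reticulum, 17 were higher and 3 lower (median 0.46), and XBP1, its transcription factor, led with 242 ± 7.61 CPM with MYCi975, 63.0 ± 5.88 CPM with tetracycline and 182 ± 4.10 CPM in controls. SYVN1 and EIF2AK3 were lower (-0.82 and -0.41). XBP1 is also a plasma cell gene, and the 5 plasma cell markers in both tables summed to 355 to 372 CPM with MYCi975, 129 to 144 CPM with tetracycline and 312 to 313 CPM in controls. XBP1 and MZB1 make up most of that sum, and PRDM1 and TNFRSF17 stood the other way, with 10.5 to 10.7 and 8.09 to 8.88 CPM with MYCi975, against 17.4 to 19.4 and 10.9 to 12.3 CPM with tetracycline. The markers thus stood on both sides, and a part of cell type in these differences was not tested.

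Folding machinery was strongly on the MYCi975 side. Of 18 heat shock chaperones 16 were higher and 2 lower (median 1.2), and all 8 CCT chaperonin subunits were higher, between 1.24 and 1.91. FKBP4, an HSP90 co-chaperone, was the largest. FKBP4 had 503, 495 and 504 CPM with MYCi975, against 40.5, 37.5 and 36.7 CPM with tetracycline. The mitochondrial chaperonin pair HSPD1 (2.94) and HSPE1 (2.46) and cytosolic HSP90AB1 (1.90) followed. Against control, 15 of the 18 fell with MYCi975 and none rose (median -0.31), and 17 fell with tetracycline and 1 rose (median -1.52). FKBP4 itself was at -0.22 with MYCi975 and -3.89 with tetracycline.

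DNAJB4 was the chaperone that was clearly lower with MYCi975 (-1.43). HSPB1 was lower by a small amount (-0.10), a call that was lost without MYCi975 replicate 2 or tetracycline replicate 2 (adjusted p = 0.1 and 0.14). Of 37 proteasome subunits 30 were higher and 5 lower (median 0.50). The lower ones included PSMB9 (-1.37) and PSMB10 (-0.97), which replace catalytic subunits in the immunoproteasome, while the constitutive catalytic subunit PSMB5 was higher (1.07).

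**Figure D3:**
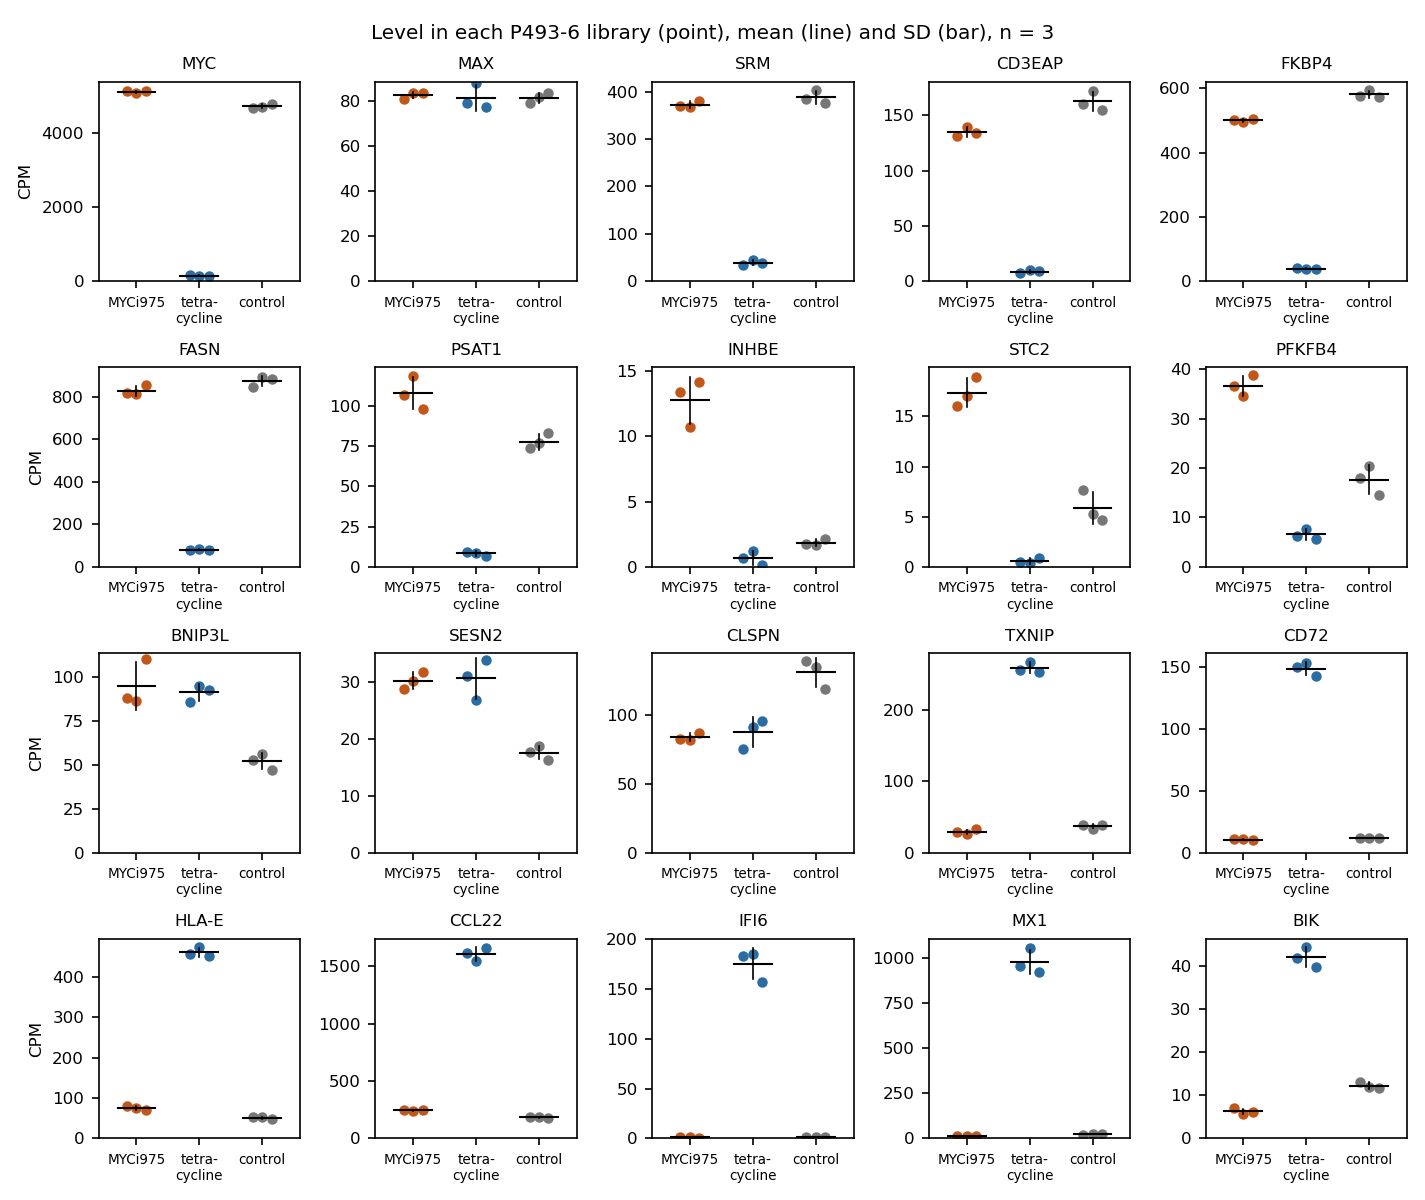
Level of 20 genes in every P493-6 library in CPM (vertical axes, linear from 0), with the MYCi975, tetracycline and control groups from left to right, 1 point per library, a line at the mean and a bar of 1 SD (n = 3 each). MYC, SRM, CD3EAP, FKBP4 and FASN are low with tetracycline and lie far closer to control with MYCi975. With MYCi975, CD3EAP and FKBP4 were called lower and MYC higher than control. INHBE and STC2 are highest with MYCi975, and IFI6, MX1 and CCL22 are high with tetracycline alone.

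Replication genes and mitotic genes parted. Of 39 genes that act in DNA replication or at the entry to S phase 35 were higher with MYCi975 and 1 lower (median 0.77), led by POLE2 (1.76), a DNA polymerase epsilon subunit, the phosphatase CDC25A (1.72), the clamp loader RFC3 (1.65) and the origin licensing factor CDC6 (1.33). CDC6 had 126, 124 and 118 CPM with MYCi975, against 51.1, 47.0 and 46.6 CPM with tetracycline. Controls held 176 ± 3.03 CPM, so CDC6 fell with both treatments, by -0.52 on the log2 scale with MYCi975 and -1.85 with tetracycline. Over the list, 35 members fell with MYCi975 and 39 with tetracycline, and none rose. CCNE2, cyclin E2, was the one lower in the direct comparison (-0.35).

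Of 30 mitotic genes 8 were higher, 15 lower and 7 not called (median -0.15). With TMM factors the split was 5 higher and 18 lower. CDC25C (-0.80), the cytokinesis scaffold ANLN (-0.74) and the kinesin KIF14 (-0.60) were lower with MYCi975, and the checkpoint kinase BUB1B (0.67) and survivin, BIRC5 (0.51), were higher. ANLN had 36.5, 38.3 and 39.4 CPM with MYCi975, against 70.8, 58.3 and 63.7 CPM with tetracycline. Controls held 52.0 ± 3.04 CPM of ANLN, between the 2 treatments. Against control 25 of the 30 fell with MYCi975 and none rose, while tetracycline gave 6 higher and 16 lower, or 12 and 13 with TMM factors.

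A list that mixes genes of cell cycle exit and entry was mostly higher with tetracycline, and its kinds were not counted apart. Of 26 measured cell cycle inhibitors, D cyclins, their kinases and quiescence factors, 3 were higher and 19 lower with MYCi975 (median -0.75). TXNIP, which restrains glucose uptake, stood lowest. TXNIP had 29.1, 26.4 and 32.3 CPM with MYCi975, against 256, 267 and 253 CPM with tetracycline. Controls held 36.7 ± 2.77 CPM, so TXNIP fell with MYCi975 (-0.32, adjusted p = 2.0e-04) and rose with tetracycline (2.79). Over the list, 4 members rose and 6 fell from control with MYCi975, but 6 rose and 4 fell with TMM factors, so the side depends on the scaling. The antiproliferative BTG2 (-2.74), the quiescence factor KLF2 (-2.56) and the CDK inhibitor CDKN2D (-2.38) were also lower, while the G1 kinases CDK4 (1.75) and CDK6 (1.56) were higher with MYCi975.

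Among 24 p53 targets 3 were higher and 13 lower (median -0.28; 3 and 18 with TMM factors), TP53INP1 (-2.47) among the lowest and TRIAP1 (1.07) the highest. Of 18 histone genes 4 were higher and 12 lower, with H2AFZ, the H2A.Z gene, at 1.07 and the linker histone H1FX at -1.09. Of 29 lysosome and autophagy genes 4 were higher and 20 lower (median -0.40), the cathepsins CTSZ (-1.66) and CTSH (-1.23) among the lower ones and CTSD (0.66) among the higher.

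Interferon-stimulated genes gave the largest negative differences. Of the 28 members listed for both treatments, 27 were lower with MYCi975 and 1 higher, with a median of -3.68. The same list had 27 members above control and 1 below with tetracycline (median 3.50) and 6 above and 6 below with MYCi975 (median -0.08). IFI6, an interferon-induced mitochondrial protein, had the most negative difference. IFI6 had 1.2, 1.28 and 0.799 CPM with MYCi975, against 184, 185 and 158 CPM with tetracycline. The MYCi975 libraries held about 1 CPM of it, like the controls (1.12 ± 0.0937 CPM), and no library of one treatment came near those of the other (-6.40 ± 0.13, SE, adjusted p = 1.3e-39). With a pseudocount of 0.1 the difference of IFI6 was -7.22. MX1, an antiviral GTPase, was far more abundant. MX1 had 15.5, 12.6 and 10.6 CPM with MYCi975, against 956, 1054 and 922 CPM with tetracycline. Controls held 23.4 ± 2.21 CPM, so MX1 fell with MYCi975 (-0.83, adjusted p = 4.0e-04) and rose with tetracycline (5.32).

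IFI44L followed at -6.21, SLFN5 at -5.83, the helicase HELZ2 at -5.14, IFIT1, which binds viral RNA, at -5.06, EPSTI1 at -5.02, XAF1 at -5.01, the RNA sensor OAS1 at -4.85 and SAMD9L at -4.59. IFIT1 had 3.93, 3.75 and 3.49 CPM with MYCi975, against 152, 166 and 151 CPM with tetracycline. The 2 groups did not overlap, and the controls (4.59 ± 1.10 CPM) lay with MYCi975. MX2, a relative of MX1, was the one member higher with MYCi975 (0.21), a call that was lost with DESeq2 on recovered reads (adjusted p = 0.058).

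The interferon response element, to which STAT and IRF factors bind, holds GAAA, any 2 bases and GAAA again, a pattern that was searched on both strands after these values were seen. It was present in 2.41% of all matched promoters, 1.90% of those of genes higher and 3.26% of those lower with MYCi975. Promoters to show were picked because they hold it, by size of difference among named genes called lower, again without the chromosome of MYC. MX1, SLFN5 and HELZ2, which ranked above IFIT1, gave no match and were passed over. The promoters of IFI6, IFI44L and IFIT1, from the genes with the most negative differences, hold it 3, 2 and 2 times, and in IFIT1 it lies on the opposite strand. They are given below on the strand of the gene with the pattern in capitals and lie at chr1:27672193-27672442 (minus strand), chr1:78620198-78620447 (plus strand) and chr10:89392373-89392622 (plus strand) of GRCh38.p14, from RefSeq.
IFI6: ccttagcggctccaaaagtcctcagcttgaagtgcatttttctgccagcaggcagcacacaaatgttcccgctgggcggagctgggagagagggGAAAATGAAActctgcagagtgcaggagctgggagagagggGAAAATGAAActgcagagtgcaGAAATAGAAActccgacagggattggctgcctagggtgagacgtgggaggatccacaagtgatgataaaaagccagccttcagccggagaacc
IFI44L: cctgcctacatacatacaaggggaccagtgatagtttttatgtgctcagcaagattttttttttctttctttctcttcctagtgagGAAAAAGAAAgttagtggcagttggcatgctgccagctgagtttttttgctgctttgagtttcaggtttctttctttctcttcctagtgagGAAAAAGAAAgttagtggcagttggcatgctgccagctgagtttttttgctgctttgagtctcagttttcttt
IFIT1: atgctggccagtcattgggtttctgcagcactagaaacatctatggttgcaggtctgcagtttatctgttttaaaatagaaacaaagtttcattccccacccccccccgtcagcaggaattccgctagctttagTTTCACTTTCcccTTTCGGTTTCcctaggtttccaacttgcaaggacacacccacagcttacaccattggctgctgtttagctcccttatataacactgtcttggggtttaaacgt

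A further 7 interferon-stimulated genes of the list, DDX60, OAS3, IFI44, RSAD2, OASL, IFI27 and USP18, were listed only beside tetracycline and so have no MYCi975 values here. DDX60 had 56.7, 55.4 and 49.7 CPM with tetracycline, against 0.194, 0.573 and 0.409 CPM in controls. OAS3 averaged 53.2 ± 5.27 CPM with tetracycline and 0.268 CPM in controls. RSAD2 averaged 26.0 ± 3.87 CPM with tetracycline, and the controls held 0.133 CPM. Every gene listed in either table had more than 1 CPM in at least 2 of its 6 libraries, so a gene left out of the MYCi975 table under that same filter could have passed 1 CPM in at most 1 of its 6 libraries.

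**Figure D4:**
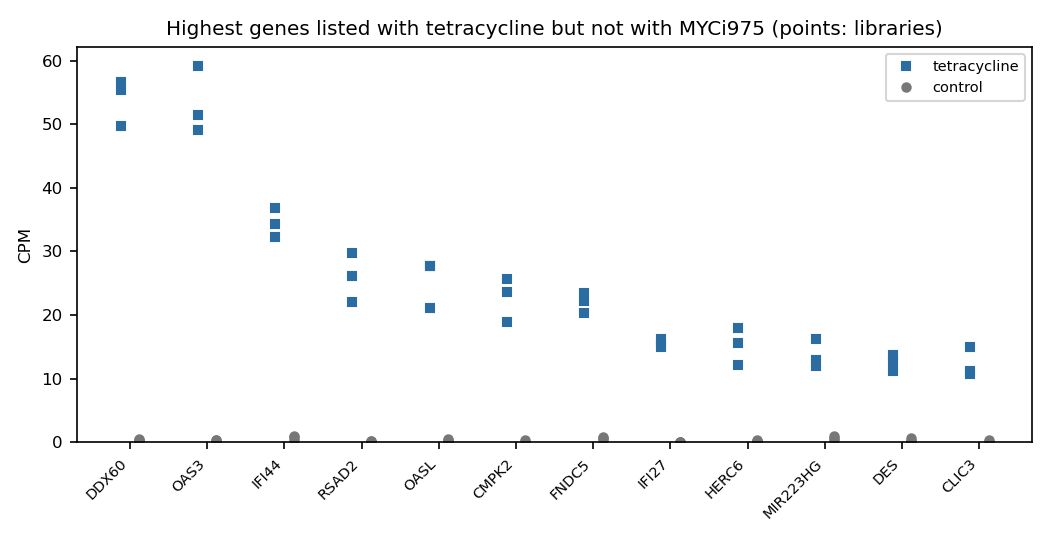
Level in CPM (vertical axis) of the 12 highest genes listed beside tetracycline but not beside MYCi975, with tetracycline libraries as blue squares and control libraries as grey circles, 3 each. DDX60 and OAS3 exceed 49 CPM in every tetracycline library, and all 12 stay at or below about 1 CPM in controls. Low controls follow from the filter, which lets such genes pass 1 CPM in at most 1 control library.

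Most antigen presentation genes were lower with MYCi975 than with tetracycline. All 13 measured MHC class II genes were lower, between -2.19 and -1.32 (median -1.67). CIITA, the master regulator of the class, showed it too. CIITA had 88.6, 96.6 and 102 CPM with MYCi975, against 313, 324 and 329 CPM with tetracycline. Controls held 86.4 ± 4.24 CPM. Against control, 12 of the 13 rose with MYCi975 (median 0.42) and 13 with tetracycline (median 1.99), so both treatments lay above control by different amounts. HLA-DOB (-2.19), HLA-DMB (-1.90) and HLA-DOA (-1.87), which regulate peptide loading, had the largest differences.

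Of 16 class I presentation genes 14 were lower and 2, the general chaperones CALR and PDIA3, higher (median -0.94). HLA-E, a ligand of natural killer receptors, was lowest. HLA-E had 79.6, 75.3 and 69.5 CPM with MYCi975, against 457, 473 and 452 CPM with tetracycline. Controls held 50.9 ± 2.52 CPM, so HLA-E rose with both treatments, by 0.55 with MYCi975 and 3.15 with tetracycline. The loading factors TAPBP and TAPBPL were at -1.33 and -1.63.

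NF-kB genes ran the same way. Of 21 measured subunits, feedback inhibitors and chemokines 20 were lower and 1, the inhibitor NFKBIB (1.38), higher (median -1.28). The cytokines TNF (-3.43) and LTB (-3.25) and the adaptor TRAF1 (-2.43) were among the largest. CCL22, a chemokine for regulatory T cells, was the most abundant of those named. CCL22 had 245, 238 and 245 CPM with MYCi975, against 1616, 1543 and 1659 CPM with tetracycline. Controls held 182 ± 5.06 CPM, below all 3 MYCi975 libraries (0.41 from control, adjusted p = 2.2e-11), and tetracycline stood 3.13 from control. Of 13 immediate early genes 9 were lower and none higher, JUN at -2.64, EGR1 at -3.40 and EGR2 at -2.56; FOS, EGR3 and MAFF were listed only beside tetracycline.

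B cell identity genes were higher with tetracycline. Of 32 genes of the B cell receptor and the B cell surface 30 were lower with MYCi975 and 1, CD38, higher (median -1.03). CD72, an inhibitory coreceptor, differed most. CD72 had 10.8, 10.9 and 9.78 CPM with MYCi975, against 149.7, 153 and 143 CPM with tetracycline. Controls held 11.8 ± 0.0817 CPM, beside the MYCi975 libraries. The receptor chain CD79B was at -2.03, the homing receptor CCR7 at -3.04 and the activation marker CD83 at -1.98. Of 19 lineage transcription factors 15 were lower and 3 higher (median -0.87), with SPIB (-2.12), MEF2C (-1.88), BACH2 (-1.73) and POU2F2 (-1.53) lowest of those named and TCF3 (0.46) and BCL11A (0.27) higher.

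The BCL2 family, which sets the threshold for apoptosis, was lower with MYCi975 in 11 of 15 members and higher in 2, on both sides of its balance. The survival genes BCL2A1 (-3.10), BCL2L1 (-1.88) and MCL1 (-1.55) and the pro-death BIK (-2.57) were all lower, and pro-death BID (0.70) and BCL2L11 (0.29) higher. MCL1 had 154, 155 and 152 CPM with MYCi975, against 466, 444 and 446 CPM with tetracycline. MCL1 in controls was 168 ± 4.32 CPM, between the 2 treatments. Cell death was not measured here.

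Some genes stood on opposite sides of the shared controls. With MYCi975 above and tetracycline below control, the rule for named genes gave ASS1, STC2, INHBE, PFKFB4, ALDH1L2 and PDK1. ASS1 was the clearest. ASS1 had 174, 181 and 172 CPM with MYCi975, against 6.08, 6.37 and 5.26 CPM with tetracycline. The controls, at 51.8 ± 4.16 CPM, lay between, with MYCi975 1.75 and tetracycline -2.94 from them. ALDH1L2, a mitochondrial folate enzyme, gave 0.94 and -1.21. The rule takes only genes called against control with both treatments, so those calls were fixed in advance. All 12 differences from control stayed called with TMM factors.

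With MYCi975 below and tetracycline above control, the rule gave IFI44L, MX1, BIK, COL6A1, AHRR and PLAU. BIK had 6.93, 5.63 and 6.19 CPM with MYCi975, against 41.9, 44.3 and 39.7 CPM with tetracycline. Controls held 12.2 ± 0.787 CPM and BIK was -0.86 from them with MYCi975 and 1.71 with tetracycline. AHRR, the repressor of the aryl hydrocarbon receptor, gave -0.93 and 1.61, and the protease PLAU -0.77 and 1.51. COL6A1, a collagen chain, gave -1.0 and 2.11; 2 of 6 fibroblast markers were in both tables, at a sum of 12 to 14.6 CPM with MYCi975, 25.7 to 33.8 CPM with tetracycline and 10.2 to 12.2 CPM in controls, and a part of such cells was not tested.

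A last group differed from control with both treatments and not between them. BNIP3L, a mitophagy receptor, held 94.6 ± 13.6 CPM with MYCi975, 91.0 ± 4.71 CPM with tetracycline and 51.9 ± 4.65 CPM in controls. Its direct difference was 0.05 (95% interval -0.11 to 0.21, adjusted p = 0.6). SESN2, a stress-induced brake on growth signalling, gave -0.012 (-0.19 to 0.17), with 0.75 and 0.76 from control. Of 6 such genes above control the other 4 are entries with no symbol in the files, among them ENSG00000276112 at 982 ± 103 CPM with MYCi975, 1024 ± 23.4 CPM with tetracycline and 629.6 ± 45.8 CPM in controls. That entry became called in the direct comparison with TMM factors (adjusted p = 0.019), edgeR and DESeq2.

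Below control with both treatments were CLSPN, ABCA1, RNF144A, ZSWIM1, ZWINT and CBWD5. CLSPN, a replication checkpoint adaptor, showed the shape. CLSPN had 82.6, 82.0 and 87.1 CPM with MYCi975, against 75.5, 91.5 and 95.8 CPM with tetracycline. The 2 treatments overlapped, and all 6 libraries lay under the controls, which held 131 ± 10.8 CPM (-0.63 with MYCi975 and -0.58 with tetracycline). The direct difference of -0.05 was not called (95% interval -0.20 to 0.09), but was without tetracycline replicate 1 (adjusted p = 0.019). It also became called with TMM factors (adjusted p = 0.027), as did that of the cholesterol exporter ABCA1 (0.022) and of the kinetochore protein ZWINT (0.012), each at a TMM difference of -0.17 to -0.16. CBWD5 belongs to a family of near-identical copies, so its value is uncertain.

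**Figure D5:**
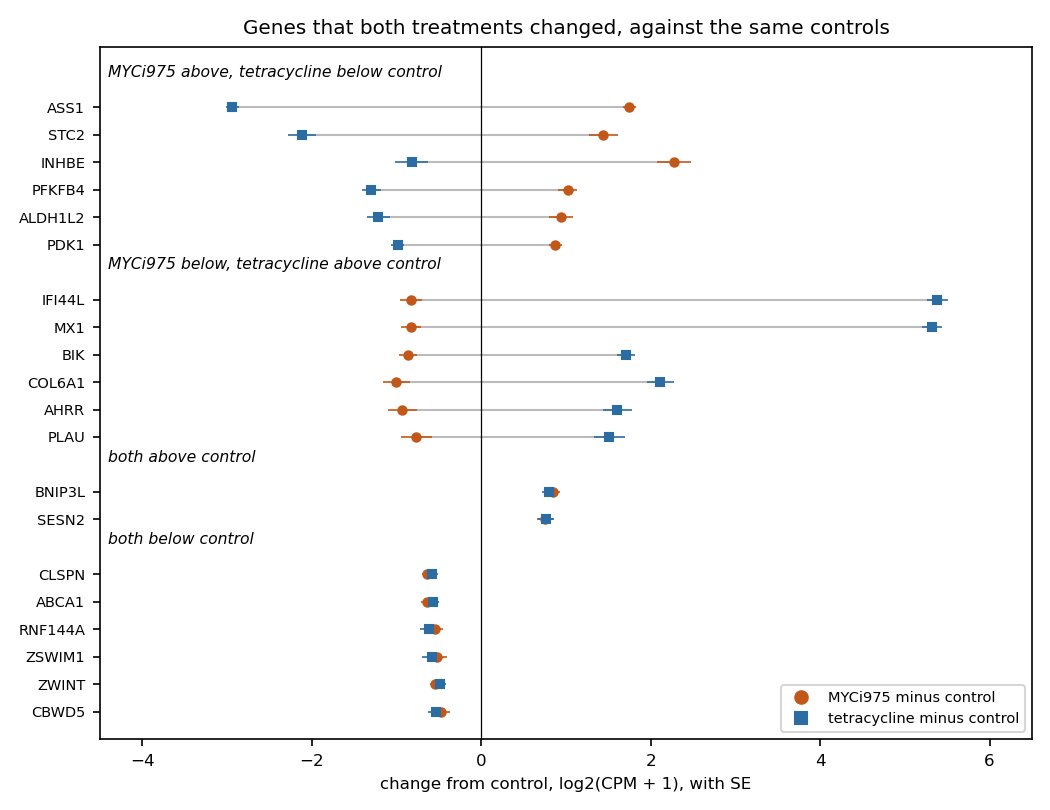
Differences from the shared controls on the log2(CPM + 1) scale with SE (horizontal axis) for 20 genes, with MYCi975 as orange circles and tetracycline as blue squares. ASS1 to PDK1 lie above 0 with MYCi975 and below 0 with tetracycline, IFI44L to PLAU the other way round, and the symbols of BNIP3L to CBWD5 lie nearly on top of each other.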

How the data were processed

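Total RNA from 9 P493-6 samples, 3 per group as labelled, was made into stranded exon-capture libraries (TruSeq RNA Access, 50 ng input), per the labels' protocols. Per the submitters' processing notes, alignment was done with STAR on hg38, counting with HTSeq and testing with edgeR, all of version not given in the sources used here. Values were deposited by the authors as CPM without further scaling between libraries, and 100% of values of every library came back as whole reads (tolerance 0.001). The control columns are identical in both tables. The authors' deposited fold changes, p-values and marks were not used, and the 6 PC3 samples were not analysed here.

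Both tables were joined on the Ensembl identifier, and a reference table gave names to 274 of the 325 entries that lack a symbol. limma 3.58.1 in R 4.3.3 (trend and robust settings) was fitted on log2(CPM + 1) over all 9 libraries, so that the controls shared only in the estimate of spread for the direct contrast, with two-sided Benjamini-Hochberg adjusted p-values over 12860 genes. The members, 40 gene lists and marker lists were chosen with earlier results of these data known. Some genes are in more than 1 list, so the counts of the lists are not independent. Named genes follow a rule: MYC and MAX; the 10 largest called differences per direction at a mean of at least 5 CPM without overlap; in each list the 4 called members that differ most (or fewer) and up to 2 opposite to the list's median; and 6 genes per sign with opposite changes from control, or with a direct 95% interval within 0.3. The genes of this last part also had to be called against control with both treatments, at a mean of at least 5 CPM over the 9 libraries. Other genes are named only as listed in 1 table. Replicates correlated at r of 0.9941 to 0.9957, and chi-square per gene between them was 2.11 to 6.07, more than counting error. The fit was also run on simulated counts in which few genes differed, unlike here. That run does not show how the fit does with differences this broad. Alternatives were a pseudocount of 0.1, TMM factors, a mean of at least 5 CPM, the replicate number as a block, edgeR 4.0.16 quasi-likelihood and DESeq2 1.42.0 tests on the recovered reads, the 6 treated libraries alone, and leaving out each library. edgeR called 9803 genes on these reads. Tables and figures were made with Python 3.11.15.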

Additional observations from a re-analysis of the deposited data

Results flagged for a closer look

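The genes listed for only 1 of the 2 treatments lie outside the direct comparison and were looked at against the controls of their own table. Of 843 genes listed beside tetracycline but not beside MYCi975, 653 had every tetracycline library above every control library. Listed genes had more than 1 CPM in at least 2 of the 6 libraries they were listed with. A gene left out beside MYCi975 under that filter could thus pass 1 CPM in at most 1 control library. The filter itself favours this order, and the share over all genes was not computed. Most of the 843 genes were low, with a median of 1.51 CPM with tetracycline, but 40 averaged at least 5 CPM and 12 at least 10 CPM. Interferon-stimulated genes led them, and FNDC5, which encodes the precursor of irisin, stood among these at 22.0 ± 1.56 CPM with tetracycline and 0.613 CPM in controls. DES, the muscle intermediate filament desmin, averaged 12.5 ± 1.31 CPM with tetracycline and 0.317 CPM in controls, and CLIC3 12.3 ± 2.31 CPM and 0.158 CPM. These were taken in order of level after the values were seen.

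Of 138 genes listed beside MYCi975 but not beside tetracycline, 25 had every MYCi975 library above every control library, and none averaged 5 CPM. The filter favours this order here too. CHAC1 was highest, with 3.51, 3.65 and 5.09 CPM with MYCi975, against 0.194, 0.491 and 0.818 CPM in controls. SPNS3 followed at 2.2 ± 0.723 CPM with MYCi975 and 0.276 CPM in controls. Levels with the other treatment are not known for genes of either kind, so no direct difference was computed.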

How the results depend on the processing

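Over 16 alternatives the direct comparison called 8408 (mean of at least 5 CPM) to 9813 genes (TMM factors), against 9794, and 9404 to 9806 when 1 library was left out; edgeR called 9803 and DESeq2 9270. With TMM factors 4884 genes were higher and 4929 lower, and 5 called genes changed sign, none of them called in the opposite direction. Of 234 named genes 221 were called, which the naming rule largely fixed in advance, as it mostly takes called genes. TAF1B, HSPB1 and MX2 lost the call under some alternative, and ENSG00000274426, ENSG00000276112, CLSPN, ABCA1 and ZWINT gained one. The median of 38 of 40 lists kept its sign under every alternative; that of cytosolic ribosomal proteins ran from -0.11 to 0.04, and that of the MYC, MAX and MXD network turned to -0.00332 with TMM factors and -0.00235 with edgeR; the cause was not tested. MYCi975 against control depended most on settings: its 26 genes of at least 2-fold became 118 with a pseudocount of 0.1, 133 with edgeR, 86 with DESeq2 and 13 at a mean of at least 5 CPM, which tests fewer genes, and its 2093 lower genes became 1178 with DESeq2. Libraries with the same replicate number showed no clear shared deviation (r of -0.11 to 0.068). The labels do not say what the number means, so this does not tell if samples were paired. With the number as a block the direct comparison called 5420 genes higher and 4341 lower. A level of 1 CPM is 8.16 to 12.2 reads, which limits genes near it.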

Other observations

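Calls were also counted by gene class. Of 474 antisense genes 19.2% were higher and 32.5% lower with MYCi975 than with tetracycline, and of 357 long intergenic RNAs 24.1% and 32.5%, against 45.9% and 34.9% of 10811 protein-coding genes. These classes were also low, with medians of 2.12, 2.61 and 30.8 CPM over the 6 libraries, so their depth differs. Of 81 small nucleolar RNA entries 33.3% were higher and 11.1% lower. The libraries were made by exon capture, and how well it covers each class was not tested. None of the 7 immunoglobulin constant genes was higher and 6 were lower, and of 9 immunoglobulin variable genes 5 were lower and none higher.

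The 13 protein genes of the mitochondrial genome, in contrast to nuclear genes of the respiratory chain, stood close together in both treatments, with 3 higher, 1 lower and a median difference of 0.03. Their medians against the shared controls were 0.39 with MYCi975 and 0.31 with tetracycline. All mitochondrially encoded genes took 2.41 to 2.77% of CPM with MYCi975, 2.6 to 3.02% with tetracycline and 1.82 to 1.96% in controls. The 20 highest genes of a library took 13.1 to 13.9% of CPM with MYCi975, 17.5 to 18.1% with tetracycline and 11.1 to 12.8% in controls.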
